A study of Mus musculus with 12 samples.

Results

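The nuclear pore and nuclear transport receptor genes were every row of the expression table whose symbol is Nup, Kpna, Ipo, Xpo or Tnpo followed by a number, together with Kpnb1 and Xpot. This rule found 44 of 25162 genes, and all 44 symbols matched a RefSeq mouse gene. Of them, 20 encode nucleoporins of the pore, 23 encode transport receptors, and Nup62cl is a paralogue of a channel nucleoporin. The table reports mouse oocytes at the stages labelled NGO, GO and FGO, letters that the labels do not spell out and that usually denote oocytes before growth, in growth and at full size. At each stage, oocytes carrying floxed Rnaseh1 (Rnaseh1 fl/fl, WT in the sample titles) were set beside oocytes with Rnaseh1 deleted (Rnaseh1 oo-/-, KO in the titles, where oo is read here as oocyte). Rnaseh1 encodes the ribonuclease that degrades RNA paired with DNA. The labels list 2 samples of 10 oocytes for each of these 6 groups, lysed with 100 pg of ERCC spike-in RNA and amplified by Smart-seq2. The sources used here do not give the promoter driving the deletion or the age and strain of the mice.

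The table holds 1 column of values per group, and the sources used here do not say whether it is a mean, a pool or 1 of the samples. No SD, replicate count or p-value can therefore be given, and every difference stands without a replicate check. Values are FPKM (fragments scaled to transcript length and to the fragments mapped), which the authors adjusted to the spike-in RNA. Since FPKM is scaled to length, levels of different genes can be set side by side, but the depth behind them is unknown. A gene was compared when its mean over the 6 columns was at least 1 FPKM, which 39 of the 44 members and 10110 genes in all passed. The 39 are 18 nucleoporins and 21 receptors. None of the 39 passed through its highest column alone. A gene is said to have risen, fallen or differed where log2(FPKM + 1) moved by at least 1, that is 2-fold. Differences are log2 differences on that scale, which understate the change of low genes, and are given as deposited and after rescaling, where every column is set to a common level by the median, over genes, of its ratio to their geometric mean. The rescaled difference compares a gene with the typical gene of the same columns.

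The nuclear pore is a ring-shaped channel through the nuclear envelope. An outer ring and an inner ring of scaffold nucleoporins hold a central channel of phenylalanine-glycine repeat proteins, with filaments on the cytoplasmic face and a basket on the nuclear face. Importins bind cargo in the cytoplasm and release it in the nucleus when they meet Ran-GTP, whereas exportins bind cargo together with Ran-GTP and release it in the cytoplasm. Importin alpha proteins are adaptors that join cargo carrying a classical nuclear localisation signal to importin beta, and the mouse oocyte is known for an importin alpha of its own, encoded by Kpna7.

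Rnaseh1 itself measured 8.61, 27.8 and 29.1 FPKM in WT NGO, GO and FGO and 0.931, 3.0998 and 8.02 FPKM in KO, so the KO columns held 10.8%, 11.2% and 27.6% of the WT level. Column sums ran from 132093 FPKM in KO NGO to 729690 FPKM in KO FGO, and the median gene compared stood 0.72 log2 higher in KO FGO than in WT FGO as deposited, against 0.02 after rescaling. In these bulk samples fewer cells of a type and less RNA per cell cannot be told apart, and more RNA per oocyte cannot be told apart from a shift of the spike-in scale. All 15 oocyte markers listed were at 1 FPKM or more in every column, except Sohlh1, listed at 0 in WT FGO. Summed levels of 14 granulosa cell markers were 3.08, 17.2 and 36.0 FPKM in WT and 5.32, 14.3 and 79.0 FPKM in KO, and the defining markers Foxl2 and Amh stayed at or under 0.121 and 0.457 FPKM. Other markers of that list were higher in KO FGO than in WT FGO, among them Esr2 (21.3 and 37.3 FPKM in WT and KO), Cyp19a1 (6.16 and 10.4), Inha (1.17 and 9.32), Gja1 (0.965 and 6.96) and Hsd17b1 (0.845 and 3.71). Inhba (0.742 and 0.453) and Foxl2 (0.013 and 0) were lower. After rescaling, the log2 differences of the 6 markers compared were 1.44 for Inha, 1.23 for Gja1, 0.15 for Nr5a2, 0.12 for Kitl, 0.02 for Esr2 and -0.03 for Cyp19a1. From 0 to 5 of the 14 reached 1 FPKM in a WT column and from 1 to 8 in a KO column. Of 8 theca and stroma markers, 0 to 2 reached 1 FPKM in a column, with sums of 1.01 to 5.56 FPKM, and of 6 blood and immune markers also 0 to 2, with sums of 0.683 to 16.6 FPKM. The part of these other cells in the results was not tested.

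The pore and receptor genes made up less than 1% of the summed FPKM. Their 44 values summed to 0.499%, 0.467% and 0.536% of the WT NGO, GO and FGO columns and to 0.562%, 0.592% and 0.596% of the KO columns. The share was higher in KO at every stage. So was that of importin alpha (0.259% in WT and 0.363% in KO at GO, 0.316% and 0.364% at FGO). The nucleoporin share was too (0.145% and 0.174% at GO, 0.171% and 0.187% at FGO). Without Kpna2 and Kpna7, the 19 other receptor genes compared held less in KO at GO (0.0833% in WT and 0.0705% in KO) and FGO (0.0716% and 0.0647%). At NGO they held 0.0697% in WT and 0.0730% in KO. Levels ran, as the heat map of levels by role shows, from a mean of 2.22 FPKM for Ipo13 to 814 FPKM for Kpna2. The median member stood at a mean of 11.05 FPKM, and the median of all genes compared at 8.80 FPKM. In all, 37 of the 39 members were at 1 FPKM or more in all 6 columns, and the other two in at least 4.

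**Figure D1:**
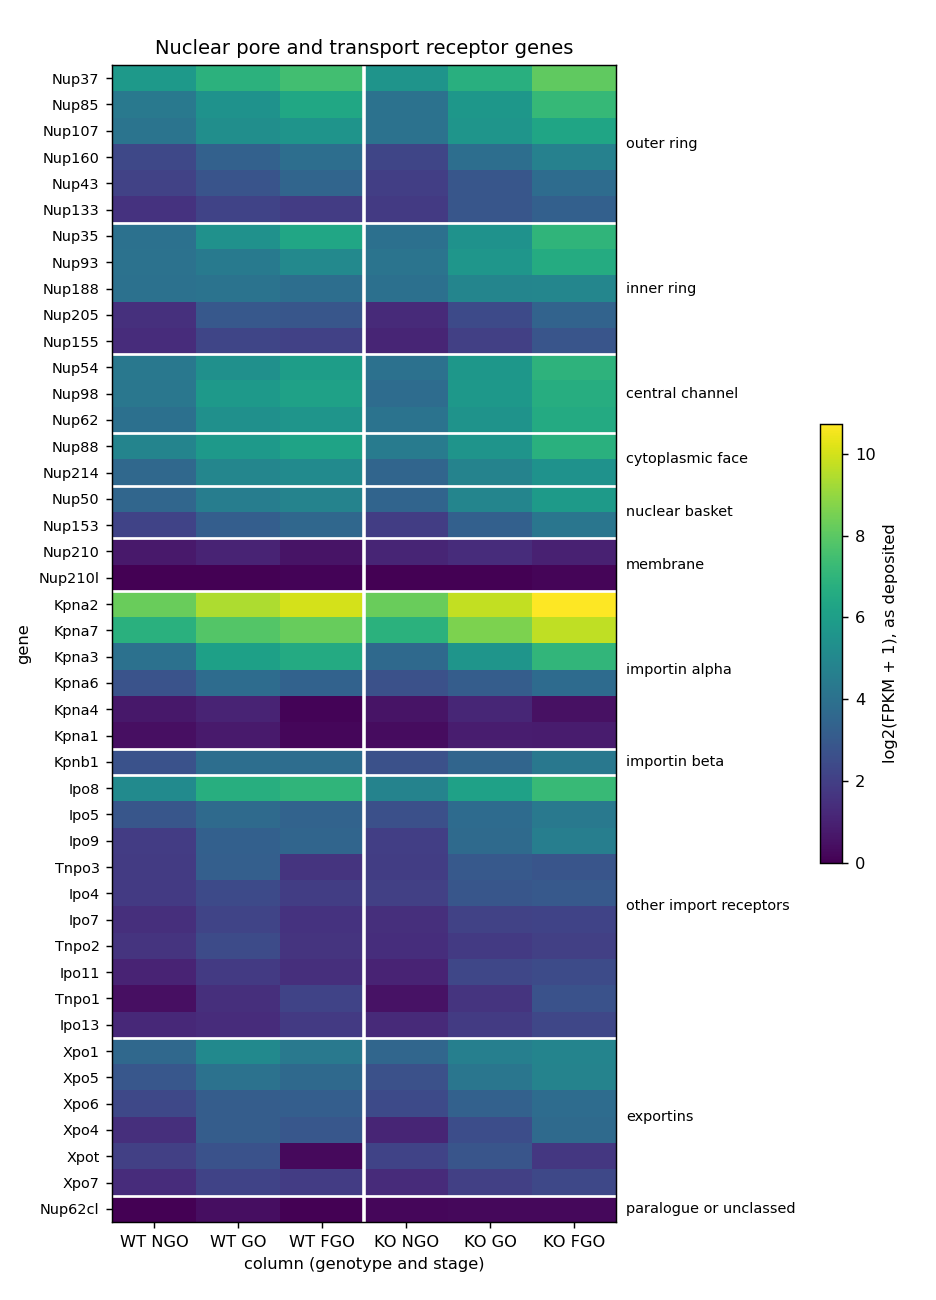
Heat map of log2(FPKM + 1) for all 44 pore and transport receptor genes (rows, grouped by role) in the 6 columns (WT and KO at NGO, GO and FGO), 1 deposited value per cell. Kpna2 is the brightest row, from 309 to 1691 FPKM, and 5 rows with a mean under 1 FPKM are near the bottom of the scale.

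Importin alpha RNA was dominated by Kpna2 and Kpna7. Kpna2, the most abundant member, measured 311, 681 and 1051 FPKM in WT NGO, GO and FGO and 309, 842 and 1691 FPKM in KO. Its rank by level lay between 38 and 68 among the 25162 genes in the 6 columns. Kpna7, the importin alpha restricted largely to oocytes and early embryos, measured 111, 234 and 303 FPKM in WT and 114, 391 and 823 FPKM in KO. Together the pair held 91.8% to 96.0% of the summed importin alpha FPKM in the 6 columns.

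The remaining importin alpha genes were lower. Kpna3 measured 14.9, 67.1 and 92.1 FPKM in WT and 11.8, 47.6 and 131 FPKM in KO, and took 2.67% to 6.73% of the importin alpha sum. Kpna6 measured 5.78, 12.8 and 9.48 FPKM in WT and 5.26, 7.96 and 12.4 FPKM in KO. Kpna1 and Kpna4, both widely expressed in other tissues, had means under 1 FPKM. Kpna1 reached at most 0.792 FPKM, in KO GO, and Kpna4 at most 1.24 FPKM, also in KO GO.

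The Kpna7 share of importin alpha RNA had a higher value in KO than in WT at GO and FGO, by less than 2-fold. Kpna7 took 25.0%, 23.5% and 20.8% of the importin alpha sum in WT NGO, GO and FGO, and 25.8%, 30.3% and 31.0% in KO. In the same columns Kpna2 took 70.1%, 68.3% and 72.2% in WT and 70.2%, 65.2% and 63.6% in KO. The Kpna7 to Kpna2 ratio went from 0.357 at NGO to 0.343 and 0.288 in WT, and from 0.368 to 0.464 and 0.487 in KO. A share within 1 column does not move with any scaling of that column, the spike-in adjustment included. The NGO shares of the 2 genotypes lay within 1 percentage point of each other, and no error can be set on any of them. Kpna2 also has near copies in the genome, which leaves its level uncertain.

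**Figure D2:**
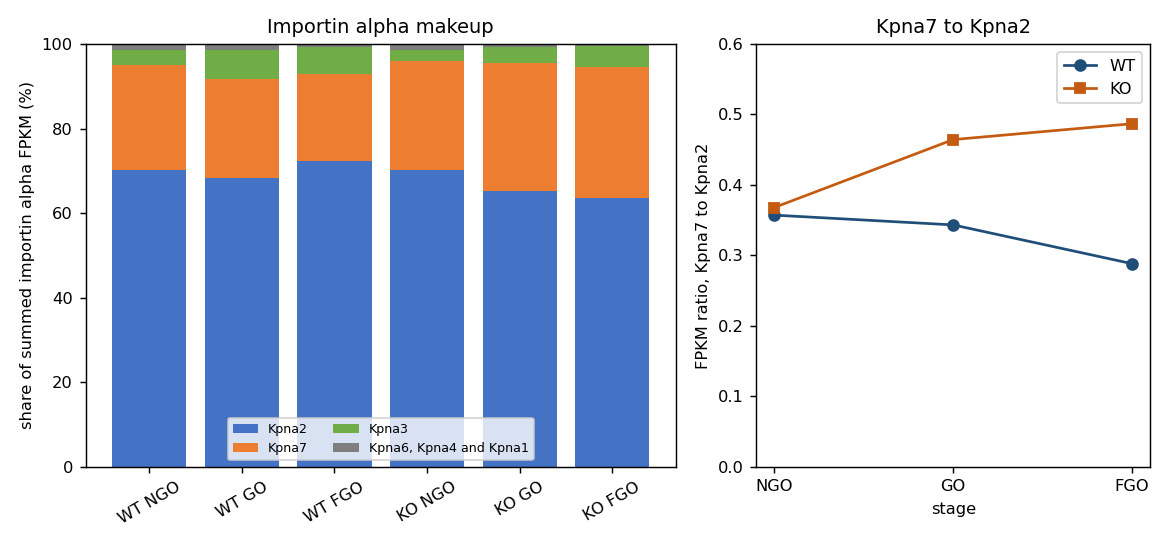
Left, share of each importin alpha gene in the summed importin alpha FPKM (percent, stacked bars from 0 to 100) in the 6 columns; right, ratio of Kpna7 to Kpna2 FPKM by stage for WT and KO, 1 value per point. The ratio goes from 0.357 at NGO to 0.288 at FGO in WT and from 0.368 to 0.487 in KO.

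The windows upstream of these 2 genes differ in base composition. The sequences are the 250 bases before the annotated start, from RefSeq on GRCm38.p6, the mm10 build, written 5′ to 3′ on the gene's strand, and capitals mark every match, on either strand, to 1 of 8 motifs. The motifs are spelt out with their shares in the next paragraph. The Kpna2 window (chr11:106999526-106999775, minus strand) is 57.6% G and C, with 16 CpG dinucleotides, 1 CCAAT word and 1 GC box. The Kpna7 window (chr5:145009637-145009886, minus strand) is 46% G and C, with 3 CpG, 1 CCAAT word and 2 CACCTG E-boxes, all read on the other strand. The bases just after this Kpna7 start were found in no GENCODE transcript of the gene, whereas those after the Kpna2 start were. The position of the Kpna7 window is uncertain to that extent. Among 32851 windows of all genes the median was 52.4% G and C with 6 CpG, and among the 39 windows of members compared it was 64% with 21 CpG, so Kpna7 lay on the low side of both.
Kpna2: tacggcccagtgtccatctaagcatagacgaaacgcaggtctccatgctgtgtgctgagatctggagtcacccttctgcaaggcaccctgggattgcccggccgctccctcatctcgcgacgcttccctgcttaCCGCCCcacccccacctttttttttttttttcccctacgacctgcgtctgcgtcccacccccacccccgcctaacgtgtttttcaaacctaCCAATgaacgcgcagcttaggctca
Kpna7: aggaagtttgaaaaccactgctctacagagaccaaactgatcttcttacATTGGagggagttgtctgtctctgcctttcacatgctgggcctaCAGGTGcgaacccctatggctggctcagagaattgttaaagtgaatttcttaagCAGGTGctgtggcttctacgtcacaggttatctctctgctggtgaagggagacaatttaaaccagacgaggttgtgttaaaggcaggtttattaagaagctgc

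A window was found for 35 of the 44 members, and the 39 windows belong to 32 of the 39 members compared. CCAAT stood in 48.7% of these windows and in 33.8% of all windows. Windows of the same gene can overlap, and a site is then counted more than once, as with the CCAAT word of Nup37 and the GC boxes of Ipo9. The GC box, searched as GGGCGG, stood in 59% and 32.7%, and the TATA box, searched as TATAAA, in 10.3% and 12.4%. The E-box word CACGTG stood in 15.4% of member windows and 6.02% of all windows, while the other E-box word searched, CACCTG, stood in 5.13% and 17.2%. Of the homeobox words, TAATTA stood in 2.56% and 4.84%. The second, TAATTG, stood in 0% of member windows and 7.17% of all windows. The NRF1 palindrome joins GCGCA to its own reverse complement. It was in 4 of the 39 member windows (10.3%) and in 257 of all 32851 (0.782%). Those 4 windows are upstream of Nup62, Nup107, Nup50 and Xpo5, and Nup50 and Xpo5 hold it in 2 places each. The CACGTG word overlaps the GC box in 1 place upstream of Nup93. A match is a run of letters in these windows and was not set against binding data. The windows of all genes belong to 27025 genes, many of them not among the 10110 compared. Member windows are also richer in G and C, at a median of 64% against 52.4%. The part of base composition in these motif shares was not tested. The Nup50 (chr15:84923178-84923427, plus strand) and Nup107 (chr10:117792706-117792955, minus strand) windows show the palindrome, and the third window, at the first of 2 annotated starts of Nup93 (chr8:94214314-94214563, plus strand), belongs to the member with the largest deposited difference between genotypes at GO and at FGO. The window of the second Nup93 start (chr8:94266597-94266846, plus strand), not printed, is 39.2% G and C with 3 CpG, a TATA box, a CCAAT word and no GC box.
Nup50: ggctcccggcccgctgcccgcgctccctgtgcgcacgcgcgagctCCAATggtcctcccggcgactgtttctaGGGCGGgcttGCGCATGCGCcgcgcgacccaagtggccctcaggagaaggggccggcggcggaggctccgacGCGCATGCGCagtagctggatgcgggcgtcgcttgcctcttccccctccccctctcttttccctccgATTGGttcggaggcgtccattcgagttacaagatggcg
Nup107: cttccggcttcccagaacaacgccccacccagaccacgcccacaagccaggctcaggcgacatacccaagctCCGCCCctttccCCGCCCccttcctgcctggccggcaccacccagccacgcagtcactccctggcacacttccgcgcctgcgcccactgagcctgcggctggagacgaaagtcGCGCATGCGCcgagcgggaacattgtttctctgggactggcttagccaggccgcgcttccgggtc
Nup93: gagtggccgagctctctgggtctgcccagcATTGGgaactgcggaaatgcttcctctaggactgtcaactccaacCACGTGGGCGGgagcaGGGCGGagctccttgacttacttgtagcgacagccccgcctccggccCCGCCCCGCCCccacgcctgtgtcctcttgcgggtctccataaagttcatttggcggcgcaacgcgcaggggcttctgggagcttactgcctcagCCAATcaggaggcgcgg

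Importin beta and its relatives carry cargo directly or with an adaptor. Kpnb1, importin beta itself, measured 5.48, 13.7 and 13.2 FPKM in WT NGO, GO and FGO and 5.31, 10.2 and 18.4 FPKM in KO. Among the 10 other import receptors, Ipo8, a carrier of Argonaute and Smad proteins, was highest, at 34.02, 106 and 130.3 FPKM in WT and 27.1, 68.5 and 148 FPKM in KO. It held 56.7% to 78.1% of the summed Ipo and Tnpo FPKM in the 6 columns. Ipo13 had the lowest mean, at 1.32, 1.56 and 2.53 FPKM in WT and 1.41, 2.67 and 3.85 FPKM in KO.

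Outside Ipo8, no Ipo or Tnpo value exceeded 22.9 FPKM. Ipo9, an importer of histones and actin, measured 2.79, 8.64 and 10.4 FPKM in WT and 2.92, 11.9 and 22.9 FPKM in KO, highest in KO FGO. Ipo4, another importer of histones, measured 2.49, 4.32 and 2.82 FPKM in WT and 3.08, 6.31 and 7.09 FPKM in KO. Ipo5, a carrier of ribosomal proteins and histones, ranged over 5.16 to 19.2 FPKM, Ipo7 over 1.75 to 3.62 FPKM and Ipo11 over 1.099 to 4.48 FPKM. The transportins carry RNA-binding proteins among other cargo. Tnpo1 measured 0.372, 1.75 and 3.52 FPKM in WT and 0.428, 2.05 and 5.498 FPKM in KO. Tnpo3, which imports serine and arginine rich splicing factors, measured 2.62, 8.42 and 2.09 FPKM in WT and 2.84, 7.03 and 6.17 FPKM in KO. Tnpo2 measured 2.09, 4.44 and 2.02 FPKM in WT and 1.67, 2.505 and 3.11 FPKM in KO. In WT, both Tnpo2 and Tnpo3 were highest at GO and lowest at FGO.

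The exportins held less RNA than the import receptors. Xpo1, the carrier of leucine-rich export signals, had the highest mean of the 6, at 11.5, 32.99 and 18.9 FPKM in WT NGO, GO and FGO and 10.8, 23.6 and 27.8 FPKM in KO. Xpo7 had the lowest mean, at 1.56, 3.51 and 2.74 FPKM in WT and 1.47, 3.14 and 4.04 FPKM in KO. Xpo5, the exporter of microRNA precursors, measured 6.54, 15.3 and 11.6 FPKM in WT and 5.31, 17.5 and 26.9 FPKM in KO. Xpo5 and Xpo7 were higher at GO than at NGO in each genotype. Xpo4 measured 1.71, 7.99 and 6.44 FPKM in WT and 1.19, 4.87 and 12.2 FPKM in KO. Xpo6, the exporter of actin and profilin, ranged over 4.04 to 12.9 FPKM. Xpot, the exporter of transfer RNA, measured 3.07, 5.46 and 0.218 FPKM in WT and 3.52, 6.1004 and 2.37 FPKM in KO. Its share of the summed exportin FPKM was 10.8%, 7.45% and 0.451% in WT and 13.2%, 9.48% and 2.75% in KO, lowest at FGO in both genotypes.

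In the outer ring, the Y-shaped scaffold of the pore, Nup37 was highest at 53.4, 119 and 176 FPKM in WT and 45.9, 109 and 275 FPKM in KO. It held 46.6% to 54.5% of the summed outer ring FPKM. Nup85 measured 18.9, 43.7 and 82.5 FPKM in WT and 15.5, 50.8 and 145 FPKM in KO, Nup107 ranged over 15.3 to 78.6 FPKM, and Nup160 over 3.69 to 24.9 FPKM. Nup43 measured 3.295, 5.87 and 10.4 FPKM in WT and 2.94, 6.27 and 12.9 FPKM in KO. Nup133 was the lowest of the ring, at 1.96, 3.48 and 2.75 FPKM in WT and 2.51, 6.35 and 8.64 FPKM in KO. Nup37 and Nup133, subunits of one complex, thus stood at the top and the bottom of the ring by mean level.

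The inner ring genes followed separate courses. Nup93, the subunit that links the inner ring to the channel, measured 15.3, 20.6 and 31.8 FPKM in WT NGO, GO and FGO and 16.4, 48.1 and 95.9 FPKM in KO. Nup35 measured 14.8, 41.7 and 79.4 FPKM in WT and 14.5, 43.8 and 129.98 FPKM in KO, higher at each later stage in both genotypes. Nup188 measured 15.2, 15.97 and 13.7 FPKM in WT and 14.4, 28.8 and 29.4 FPKM in KO. Its 3 WT values lay close together, whereas the KO values were higher at GO and FGO than at NGO. Nup205, the paralogue of Nup188, measured 1.82, 6.68 and 6.26 FPKM in WT and 1.45, 4.38 and 9.798 FPKM in KO. Nup155 had the lowest mean of the ring, at 1.54, 3.75 and 3.23 FPKM in WT and 1.16, 3.04 and 6.11 FPKM in KO. The ratio of Nup93 to Nup205 was 8.41, 3.08 and 5.08 in WT and 11.3, 10.99 and 9.79 in KO, higher in KO at each stage.

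Channel, face and basket genes lay between these extremes. In the channel, Nup54 measured 18.6, 40.9 and 61.7 FPKM in WT and 14.9, 50.2 and 122 FPKM in KO. Nup98 measured 17.8, 52.7 and 68.8 FPKM in WT and 12.9, 50.9 and 102 FPKM in KO. Nup62 measured 14.5, 41.3 and 47.1 FPKM in WT and 15.96, 44.05 and 93.2 FPKM in KO. Nup62 and Nup54 form 1 complex in the channel, and their means over the columns were 51.4 and 42.7 FPKM for Nup54 and Nup62. The cytoplasmic face genes serve the last steps of RNA export. There, Nup88 measured 27.8, 54.8 and 72.9 FPKM in WT and 20.8, 46.3 and 109 FPKM in KO. Nup214 measured 11.4, 29.3 and 34.4 FPKM in WT and 10.3, 26.5 and 43.8 FPKM in KO, below Nup88 in each column. In the nuclear basket, Nup50 measured 10.7, 22.2 and 27.2 FPKM in WT and 10.1, 28.4 and 57.1 FPKM in KO. Nup153 measured 3.42, 8.35 and 11.05 FPKM in WT and 2.89, 8.84 and 17.6 FPKM in KO. Each of these 7 genes was lowest in an NGO column and highest in KO FGO. Of the membrane nucleoporin genes, Nup210 had a mean of 0.979 FPKM, just under the limit, with a highest value of 1.54 FPKM in KO GO. Of the membrane nucleoporin genes that carry other names, Pom121 (14.6 to 34.7 FPKM) and Ndc1 (2.73 to 29.6 FPKM) were higher. Pom121l2 was lower, at a mean of 0.0235 FPKM. Nup210l reached 0.118 FPKM and Nup62cl 0.323 FPKM at most.

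**Figure D3:**
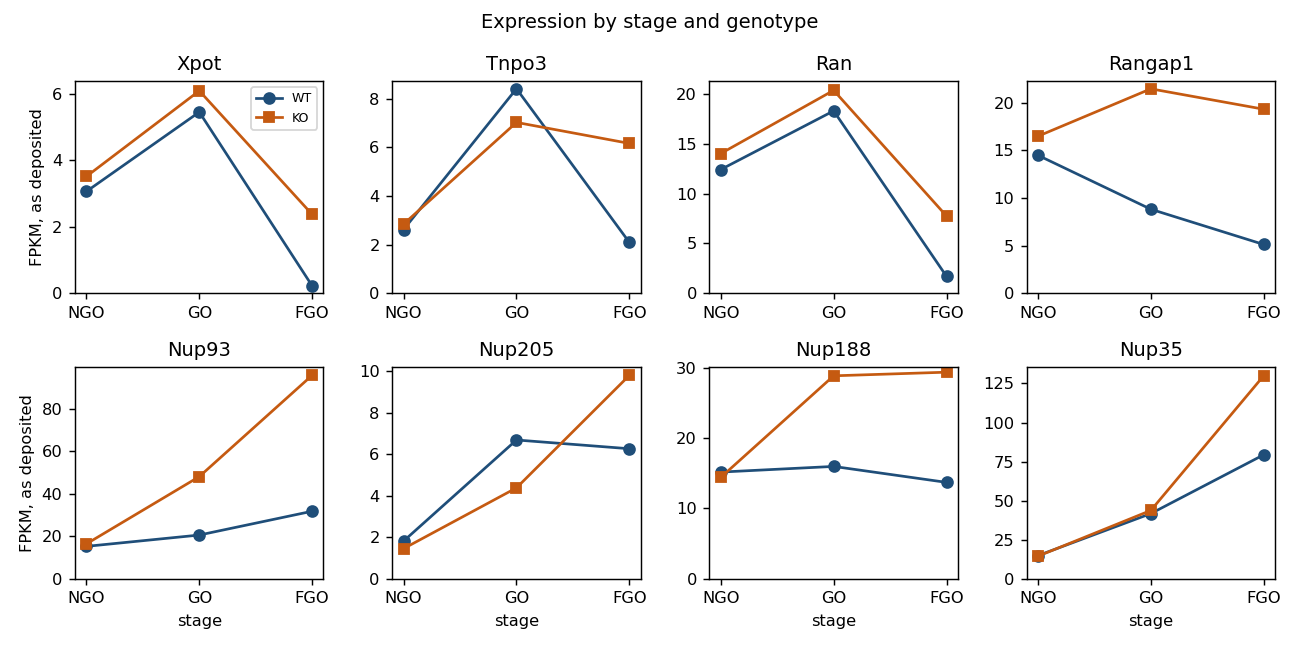
FPKM by stage (NGO, GO, FGO) in WT and KO for 8 genes, 1 deposited value per point and a separate vertical scale in each panel, each from 0. WT is lower at FGO than at GO in the Xpot, Tnpo3, Ran and Rangap1 panels, and in the Nup93 panel KO lies above WT at GO (48.1 against 20.6) and FGO (95.9 against 31.8).

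From NGO to GO, RNA of most genes in the table increased on the deposited scale, and the pore and receptor genes moved with it. In WT, 22 of 39 members rose (56.4%) and 0 fell, against 54.8% of all genes that rose and 0.129% that fell. The median was 1.07 for members and 1.06 for all genes. The 4 largest rises were those of Kpna3 (2.10), Xpo4 (1.73), Ipo8 (1.61) and Nup98 (1.51). No member was lower at GO, and the 4 smallest differences were those of Nup188 (0.07), Ipo13 (0.14), Nup93 (0.41) and Nup133 (0.60). After rescaling, 0 of 39 rose (6.06% of all genes) and 1 fell (3.27% of all genes). That gene was Nup188, at -1.19, and the members' median was -0.12 against -0.01.

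In KO, 27 of 39 members rose from NGO to GO (69.2%) and 0 fell, against 57.6% and 0.089% of all genes, with medians of 1.20 and 1.10. The calls were 15 of 18 nucleoporins and 12 of 21 receptors, a difference that was not tested. After rescaling, 0 rose and 0 fell, against 5.37% and 2.59% of all genes, and the median was -0.03 against -0.02. Nup188 was called lower from NGO to GO in rescaled WT, whereas in rescaled KO its difference was -0.42.

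From GO to FGO in WT, most Nup genes had a higher value and most receptor genes of the rule a lower one, with few members past 2-fold. In WT, 0 of 39 members rose and 2 fell, against 6.5% and 9.22% of all genes. The 2 were Xpot (-2.41, and -2.17 after rescaling) and Tnpo3 (-1.61 and -1.53). The next lowest differences were those of Tnpo2 (-0.85) and Xpo1 (-0.77), and the 4 highest those of Nup35 (0.91), Nup85 (0.90), Nup43 (0.73) and Tnpo1 (0.71). None of these 6 reached 2-fold on the log2(FPKM + 1) scale. The plain FPKM ratio of FGO to GO was 0.455 for Tnpo2 and 2.01 for Tnpo1, and with a pseudocount of 0.1 the calls were 0 higher and 3 lower. After rescaling the calls were again 0 and 2, against 5.78% and 8.33% of all genes. Xpot and Tnpo3 had means of 3.46 and 4.86 FPKM, so neither is compared where a mean of at least 5 FPKM is asked for.

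By role, 14 of 18 nucleoporins had a higher value at WT FGO than at WT GO, with a median difference of 0.37, and 8 of 21 receptors did, with a median of -0.27. Of all genes 55% were higher, with a median of 0.08. After rescaling the same counts held, with medians of 0.35 and -0.28, against 54% of all genes higher and a median of 0.06. Among the 6 outer ring genes 5 were higher, all but Nup133 (-0.26). The 3 channel genes, both face genes and both basket genes were higher, and of the 5 inner ring genes Nup35 and Nup93 were. Among the 6 exportins 5 were lower, all but Xpo6 (0.05), and among the 10 Ipo and Tnpo genes 6 were lower. Importin alpha went the other way, with 3 of 4 higher and a median of 0.41. The pathway genes under other names did not show the split: of 13 other pore genes 8 were higher, with a median of 0.03, and of 4 other receptor genes 3 were, with a median of 0.26. After rescaling those counts were 7 of 13 and 3 of 4, with medians of 0.01 and 0.23.

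In KO, 13 of 39 members rose from GO to FGO (33.3%) and 1 fell, against 39% and 0.514% of all genes, with medians of 0.82 and 0.84. The single fall was again that of Xpot, at -1.07. After rescaling, 0 rose (6.42% of all genes) and 1 fell (3.66%), Xpot at -1.55. As deposited, 18 of 18 nucleoporins, 19 of 21 receptors and 5 of 6 exportins had higher values at FGO, against 89.6% of all genes. On the rescaled values 13 of 18 nucleoporins were higher at FGO, with a median of 0.12, and 7 of 21 receptors were, with a median of -0.25. Of all genes 52.8% were higher, with a median of 0.04. Among exportins 5 of 6 were then lower, all but Xpo4 (0.37). The WT and KO steps come from separate columns, and whether they differ was not tested.

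**Figure D4:**
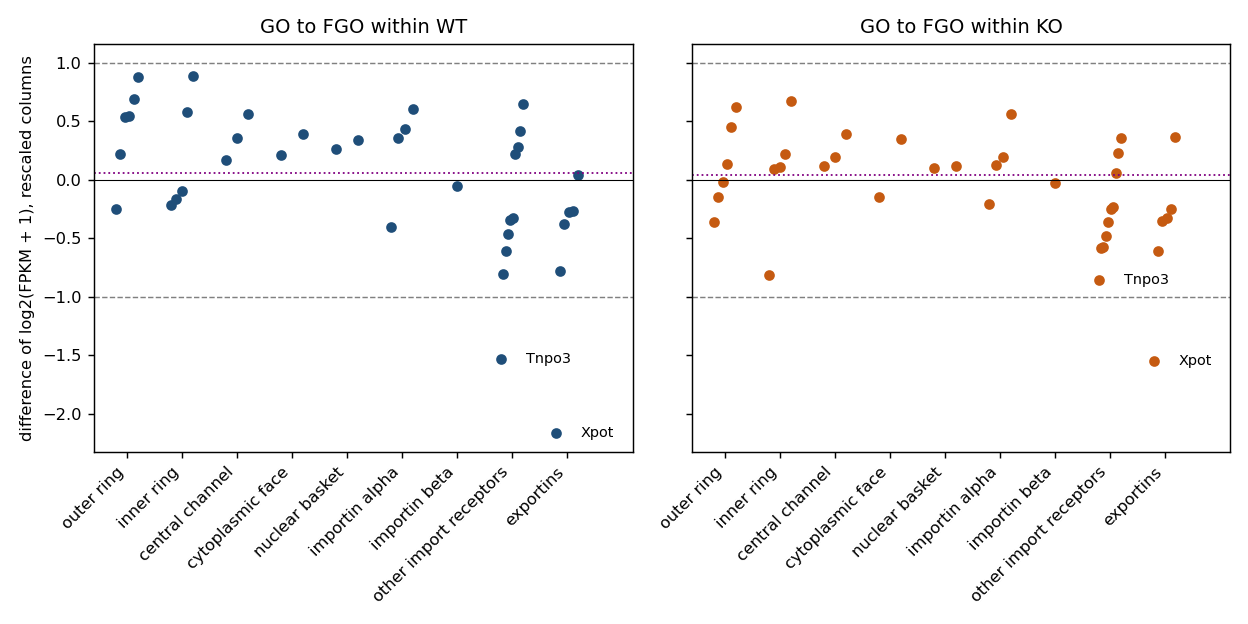
Difference in log2(FPKM + 1) from GO to FGO after rescaling for each of the 39 members, grouped by role, in WT and KO panels; points are single values, dashed lines mark 2-fold and the dotted line the median of all 10110 genes. Xpot lies lowest in both panels, at -2.17 in WT and -1.55 in KO, and the outer ring and channel points lie mostly above 0 in WT.

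The question of the design is what loss of Rnaseh1 does at each stage. At NGO no member differed 2-fold between KO and WT, 0 of 39 in either direction, against 0.0297% of all genes higher in KO and 0.326% lower. After rescaling the counts were again 0 and 0, against 0.129% and 0.356%. The members' median was -0.08 as deposited and 0.08 after rescaling, against -0.11 and 0.01 for all genes.

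At GO, 1 of 39 members was higher in KO and 0 lower, against 0.95% and 2.03% of all genes. The gene was Nup93, at 1.19 as deposited and 1.25 after rescaling, that is 48.1 against 20.6 FPKM, a ratio of 2.34. After rescaling the call was the same, against 1.05% and 1.28%. Nup188 (0.81), Kpna7 (0.74), Nup133 (0.71) and Nup160 (0.56) had the next highest deposited differences. Tnpo2 (-0.63), Ipo8 (-0.62), Kpna6 (-0.62), Xpo4 (-0.62) and Nup205 (-0.51) had the lowest. None of these 9 reached 2-fold. The paralogues Nup188 and Nup205 therefore stood on opposite sides of 0.

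At FGO every one of the 39 members had a higher value in KO than in WT, as did 9649 of the 10110 genes (95.4%). Of the members 10 were higher by 2-fold or more (25.6%) and 0 lower, against 25.8% and 0.158% of all genes, and the median was 0.70 for members and 0.72 for all. The members' count is thus at the background. The 10 were Nup93 (1.56), Xpot (1.47), Kpna7 (1.44), Nup133 (1.36), Tnpo3 (1.21), Xpo5 (1.14), Ipo4 (1.08), Ipo9 (1.07), Nup188 (1.05) and Nup50 (1.04).

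After rescaling, 0 of 39 members differed 2-fold at FGO in either direction, against 1.68% of all genes higher and 0.94% lower. The rescaled median was -0.01 against 0.02, and 19 of 39 members lay above 0, against 52.1% of all genes. The highest rescaled differences were those of Xpot (0.81), Nup93 (0.78) and Kpna7 (0.65), and the lowest that of Ipo8 (-0.60). With equal column totals the count was also 0. With 1 added to each FPKM, all 10 calls at FGO therefore rest on the deposited scale, on which the KO FGO column stands above the others. For Xpot the added 1 also matters, since its WT FGO value was only 0.218 FPKM. Its plain FPKM ratio of KO to WT at FGO was 10.9. With a pseudocount of 0.1 its deposited difference was 2.96, against 0.80 for the median gene. Granulosa markers in the KO FGO column summed to 79.0 FPKM against 36.0 in WT FGO, and their part was not tested.

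**Figure D5:**
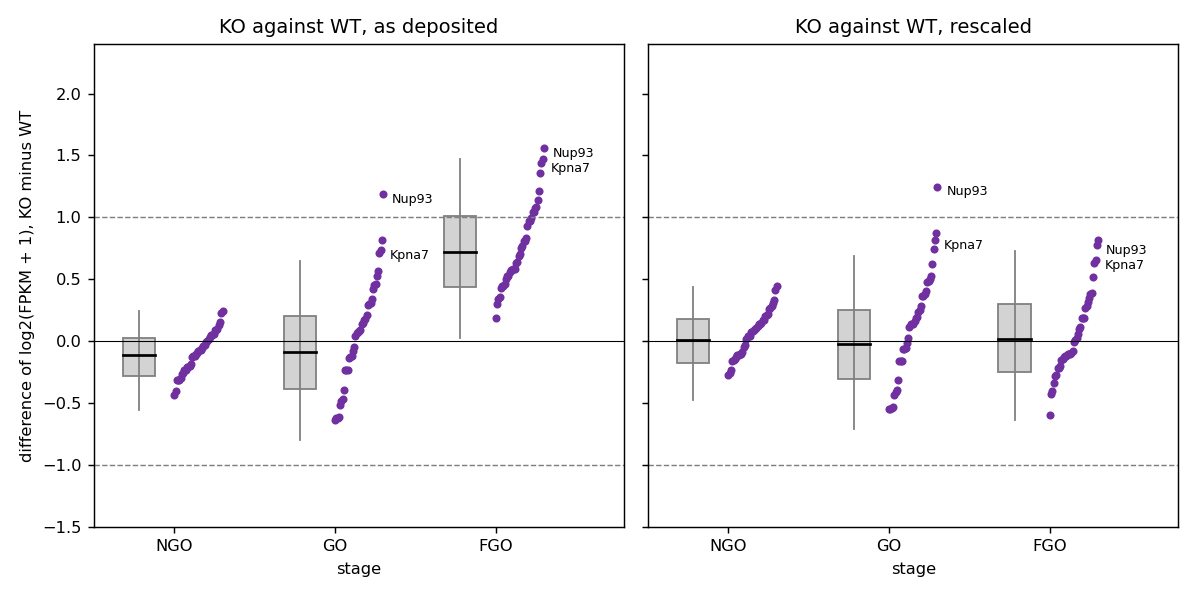
KO minus WT difference in log2(FPKM + 1) at NGO, GO and FGO, as deposited (left) and after rescaling (right). Purple points are the 39 members in order of value, the grey box spans the middle of all 10110 genes from the lower to the upper quartile, the grey line their 5th to 95th percentile and the black bar their median, with dashed lines at 2-fold and Nup93 and Kpna7 named at GO and FGO; at FGO the medians are 0.70 (members) and 0.72 (all) as deposited and -0.01 and 0.02 after rescaling.

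In 33 of 39 members (84.6%) the highest of the 6 columns was KO FGO, as in 8142 of the 10110 genes (80.5%). The other 6 were highest at GO, 5 in WT and 1 in KO. An NGO column was the lowest for 36 members. WT FGO was the lowest for the remaining 3, Nup188, Tnpo3 and Xpot. No share of all genes is given for these lowest columns. Of the 10110 genes, 9791 were higher at GO than at NGO in WT and 9903 in KO as deposited, so a lowest NGO column is not particular to the members.

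Of 30 further genes of the pathway listed under other names, 29 were in the table and 27 had a mean of at least 1 FPKM. Mog1, an older name of Rangrf, was not matched, and Pom121l2 and Ranbp6 were too low. Across genotypes 0 of 27 differed at NGO, against 0.0297% of all genes higher and 0.326% lower. At GO 1 did, against 0.95% higher and 2.03% lower. It was Rangap1, the GTPase activator of Ran, higher in KO at 1.19 as deposited and 1.24 after rescaling. Rangap1 measured 14.5, 8.82 and 5.11 FPKM in WT and 16.5, 21.5 and 19.3 FPKM in KO. At FGO 12 of 27 were higher in KO as deposited, against 25.8% of all genes. After rescaling 0 were, against 1.68% of all genes, with Rangap1 (0.96) and Ran (0.95) just under 2-fold. The 12 were the pore genes Aaas, Gle1, Rae1, Nupl1, Nupl2 and Ndc1, the receptor gene Ranbp17, and Ran, Rangap1, Rcc2, Ranbp3 and Nemp1, with differences from 1.02 for Ranbp17 to 1.73 for Rangap1.

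Of the 27, Ran had the largest difference from GO to FGO in WT. Ran, the GTPase that sets the direction of transport, measured 12.4, 18.3 and 1.68 FPKM in WT NGO, GO and FGO and 14.04, 20.4 and 7.75 FPKM in KO. It fell from GO to FGO, with differences of -2.85 log2 in WT and -1.29 in KO as deposited, and -2.73 and -2.00 after rescaling, past 2-fold each time. In WT, Rcc2, a relative of the Ran exchange factor, also fell from GO to FGO (-2.17), as did Nemp1, an inner nuclear membrane protein (-1.35). Rcc2 measured 27.8, 49.2 and 10.2 FPKM in WT and 20.7, 32.03 and 22.8 FPKM in KO. Snupn, the import adaptor of spliceosomal snRNPs, was the 1 gene of 27 that rose at this step in WT (1.11, and 1.08 after rescaling), from 52.2 to 114 FPKM. These calls, 1 higher and 3 lower of 27, stand beside 6.5% and 9.22% of all genes. Sec13, shared by the outer ring and by vesicle coats, was the most abundant, at 168, 368 and 375 FPKM in WT and 148, 362 and 707 FPKM in KO.

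Some members share sequence or exons with other genes, and the sources used here do not say how such reads were assigned. Kpna2 has near copies of at least 95% identity in Gm10184 (95.8% of its longest transcript), Gm10259 and Gm12919 (77.4% each) and Gm13310 (64.9%). The same holds for Nup35 with Gm4353 (53.7%), Nup54 with Gm15790 (53.3%), Xpot with Gm7389 (48.1%) and Tnpo1 with Gm6493 (31.3%). Ipo4 matches Gm49378 over 60.1% of its longest transcript. These genes overlap in place, sharing 2583 exon bases on the same strand (55.3% of those of Ipo4). The levels of these 6 members are uncertain to that extent. None of the matching genes named here is among the 25162 genes under that symbol, so their levels could not be compared. Kpna7 shares 50 exon bases with Arpc1a on the opposite strand. Xpo7, at a mean of 2.75 FPKM, shares 39 on the same strand (0.205% of its exon bases) with Npm2, an oocyte gene at a mean of 1962 FPKM. The level of Xpo7 is uncertain to that extent too. In the annotation on GRCm38.p6, Kpna2 lies at chr11:106988629-106999525, Kpna7 at chr5:144983727-145009636, Nup93 at chr8:94214564-94328100, Xpot at chr10:121587380-121626506 and Tnpo3 at chr6:29540827-29609858.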

How the data were processed

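Polyadenylated RNA of mouse oocytes was measured by Smart-seq2 in 12 samples, 2 for each genotype and stage. The authors deposited FPKM adjusted to the ERCC spike-in RNA, with a formula not given in the sources used here. Trim Galore 0.6.7, HISAT2 2.2.1, Cufflinks 2.2.1 and the mm10 build are named in the submitters' processing notes. The 6 columns carry no sample name, so depth, SD and n are unknown. No paired or replicate fit could be made, and the planned fold rule for 1 column per group was used in place of limma.

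Where a symbol had several lines (333 symbols), the one with the highest mean was used. No member was among them. Differences of log2(FPKM + 1) were called at 2-fold over the 10110 genes whose mean reached 1 FPKM, in 7 comparisons, as deposited and after median-ratio rescaling. The other settings tried are listed in the closing section. The scripts (Python 3.11.15, numpy 2.4.6, pandas 2.3.3) were tested on simulated data. Near copies came from BLAST+ 2.17.0 searches of GENCODE transcripts. Members, role lists, pathway genes and markers were chosen with earlier results of these data known. Among members compared, those named with values in each column were chosen by rule. They were members called in any genotype comparison, the highest and lowest of each role, the importin alpha genes, and the 4 largest rises and falls of each WT step. Members with a mean under 1 FPKM were named with their highest value.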

Additional observations from a re-analysis of the deposited data

How the results depend on the processing

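No paired analysis was possible because each genotype and stage has 1 column with no replicate number, and no replicate could be left out for the same reason. The limits are the unknown depth, the lack of replicates and the scale of the columns. Dividing columns by their median ratio left 0 members called at FGO between genotypes (10 as deposited), 1 from NGO to GO in WT (22, the 1 being lower), 0 from NGO to GO in KO (27) and 1 from GO to FGO in KO (14). Equal column totals left 0, 1, 0 and 2 in the same order, where 2.57%, 6.94%, 5.93% and 5.5% of all genes were called higher and 0.603%, 3.27%, 3.03% and 6.32% lower. It gave 4 of 39 from GO to FGO in WT in place of 2, all lower, against 12.5% of all genes. A mean of at least 5 FPKM, which tests 28 members, left 6 higher at FGO between genotypes (27.2% of all genes) and 0 from GO to FGO in WT (5.49% higher and 6.48% lower). The members' median changed sign with the median ratio at NGO between genotypes (0.081), at FGO between genotypes (-0.0052), and from NGO to GO in WT (-0.12) and KO (-0.033). It changed sign with equal totals at NGO between genotypes (0.15), from NGO to GO in WT (-0.10) and KO (-0.031), and from GO to FGO in WT (-0.026) and KO (-0.085). The call of Nup93 between genotypes at GO held under all 6 alternatives. The other counts of calls stayed within 1.5 times their value with a pseudocount of 0.1, with no filter and with the lines of a symbol summed.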

Other observations

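Xpo1 stood at 1.75, 2.15 and 1.63 times Xpo5 in WT NGO, GO and FGO, and at 2.03, 1.35 and 1.03 times in KO. Xpo1 stood at 2.09, 2.41 and 1.43 times Kpnb1 in WT and at 2.03, 2.32 and 1.51 times in KO, close between genotypes at each stage. Ran stood at 2.27, 1.34 and 0.127 times Kpnb1 in WT and at 2.64, 2.01 and 0.421 times in KO. In the outer ring, Nup107 stood at 8.33, 11.04 and 16.6 times Nup133 in WT and at 6.08, 7.47 and 9.096 times in KO. These ratios are taken within a column, and multiplying a whole column by the same factor does not move them.

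Transcript length moved with some of the differences. The median longest GENCODE transcript was 5081 nt for the 39 members and 3233 nt for the 9941 compared genes with a length, and 26 members were in the class over 4000 nt. After rescaling, the 502 genes of up to 1000 nt had a median KO minus WT difference of -0.41 at GO and -0.36 at FGO. No member was among them. The 3510 genes over 4000 nt had medians of -0.02 and 0.00024, and the 26 members of that class 0.005 and -0.047. From GO to FGO in WT the medians were 0.34 for genes of up to 1000 nt and -0.02 for genes over 4000 nt. For members they were 0.61 (2 genes over 1000 and up to 2000 nt), 0.41 (11 genes over 2000 and up to 4000 nt) and -0.20 (26 genes over 4000 nt). The part of length in the difference between nucleoporins and receptors at this step was not tested.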
